A study of Homo sapiens with 6 samples.

Results

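Amino acid transporter genes were examined in WT and *FGFR2* KO HaCaT cells, a spontaneously immortalized human keratinocyte line. The 10 genes are *SLC7A5*, *SLC3A2*, *SLC1A5*, *SLC1A4*, *SLC38A1*, *SLC38A2*, *SLC7A1*, *SLC7A2*, *SLC6A9* and *SLC43A1*. They were chosen by name, as plasma membrane transporters used by growing keratinocytes, with earlier results of these data known. All 10 were found by Ensembl gene ID among 21475 genes. RNA was sequenced from 3 WT and 3 *FGFR2* KO cell lines, 1 library per line. In the KO lines, *FGFR2* had been disrupted by CRISPR/Cas9, and single sorted cells were expanded, so that each KO line is 1 clone. The sequenced HaCaT lines are described as clonally expanded, while the WT lines of the study as a whole also included the starting cell population. All lines grew in high-glucose DMEM with fetal bovine serum, and no inflammatory stimulus is named for the sequenced cells. The labels do not say whether libraries came from separate cultures or days, and p-values therefore measure only the spread between these libraries.

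Growing cells import most of their amino acids through a few transporter families. LAT1, encoded by *SLC7A5*, exchanges intracellular glutamine for extracellular leucine and other large neutral amino acids, and it reaches the cell surface only with its heavy chain 4F2hc, encoded by *SLC3A2*. ASCT2 (*SLC1A5*) and ASCT1 (*SLC1A4*) exchange small neutral amino acids such as alanine and serine, and ASCT2 also carries glutamine. SNAT1 (*SLC38A1*) and SNAT2 (*SLC38A2*) carry neutral amino acids into the cell together with sodium, CAT1 (*SLC7A1*) and CAT2 (*SLC7A2*) carry arginine and lysine, GLYT1 (*SLC6A9*) carries glycine, and LAT3 (*SLC43A1*) carries branched-chain amino acids without exchange. Several of these genes are known targets of ATF4, the transcription factor of the amino acid response, and of MYC.

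Of the 10 genes, 4 had similar expression profiles over the libraries, as described further on: *SLC7A5*, *SLC3A2*, *SLC1A5* and *SLC1A4*. The 250 bases upstream of their starts are shown because their profiles were alike. The starts are those of the MANE Select transcripts, and the letters were read from the GRCh38 reference in the direction of transcription. Capitals mark matches to the E-box CACGTG, which MYC can bind, or to TGATGNAA on either strand, a form of the element bound by ATF4 with C/EBP proteins. The *SLC7A5* window lies at chr16:87869508-87869757 on the minus strand, the *SLC3A2* window at chr11:62880646-62880895 on the plus strand, the *SLC1A5* window at chr19:46788595-46788844 on the minus strand and the *SLC1A4* window at chr2:64989149-64989398 on the plus strand.
SLC7A5: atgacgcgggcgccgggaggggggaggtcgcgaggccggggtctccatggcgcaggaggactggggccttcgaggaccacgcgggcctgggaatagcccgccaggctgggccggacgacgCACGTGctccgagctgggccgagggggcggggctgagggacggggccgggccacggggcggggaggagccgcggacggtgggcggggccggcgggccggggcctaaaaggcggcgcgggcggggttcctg
SLC3A2: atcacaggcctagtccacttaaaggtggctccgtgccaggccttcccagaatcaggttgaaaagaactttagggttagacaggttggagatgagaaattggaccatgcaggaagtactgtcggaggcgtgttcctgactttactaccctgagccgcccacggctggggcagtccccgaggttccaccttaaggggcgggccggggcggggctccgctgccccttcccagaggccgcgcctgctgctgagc
SLC1A5: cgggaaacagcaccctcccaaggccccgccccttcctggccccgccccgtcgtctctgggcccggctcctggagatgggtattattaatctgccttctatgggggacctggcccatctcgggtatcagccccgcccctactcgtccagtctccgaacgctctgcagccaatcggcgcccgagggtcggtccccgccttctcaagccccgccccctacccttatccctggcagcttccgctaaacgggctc
SLC1A4: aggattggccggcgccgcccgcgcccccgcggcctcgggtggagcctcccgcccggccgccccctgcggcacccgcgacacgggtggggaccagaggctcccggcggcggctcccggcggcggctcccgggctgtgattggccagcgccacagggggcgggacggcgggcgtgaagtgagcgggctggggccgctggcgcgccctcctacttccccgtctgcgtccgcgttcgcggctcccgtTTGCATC

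The search covered 300 bases, namely these 250 and the first 50 of the transcript. The *SLC7A5* promoter held 1 CACGTG, which begins 130 bases before the start. The *SLC1A4* promoter held 1 match to TGATGNAA on the opposite strand, which begins 7 bases before the start and ends on its first transcribed base, so that 7 of its 8 bases are in the letters shown. The windows of *SLC3A2* and *SLC1A5* held neither sequence. Among the 9 members searched, which leave out *SLC7A2*, *SLC43A1* also held CACGTG and *SLC7A1* also held TGATGNAA, 7 bases after the start. Over 19060 MANE Select promoters, 8.80% held CACGTG and 2.46% held TGATGNAA. The 4 genes therefore do not share either sequence in this window, and elements elsewhere, such as in introns, were not searched. A match of letters is not a measured binding site.

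The deposited values are FPKM, that is, fragment numbers scaled by transcript length and by library depth. Depth, estimated from the steps between low values, was 67700000 to 88000000 fragments per library, and a single fragment per kb then equals 0.0114 to 0.0148 FPKM. *FGFR2* itself reached 21.6, 39.7 and 15.0 FPKM across WT replicates 1 to 3, compared with 3.04, 2.26 and 4.31 FPKM across KO replicates 1 to 3, below each WT library, with a log2 fold change of -2.73 (standard error 0.36, limma adjusted p = 0.261). All 14 keratinocyte markers examined, among them *KRT5* and *KRT14*, were at 91.6 FPKM or more in each library. Of the markers of other cell types, the leukocyte gene *PTPRC* stayed at 0.153 FPKM or less and the melanocyte gene *SOX10* at 0, but others were expressed. A mean of at least 0.5 FPKM was reached by 2 of 8 fibroblast, 1 of 6 melanocyte, 2 of 7 leukocyte and 2 of 5 endothelial markers. The list sums overlapped between the groups for fibroblasts (7.99 to 33.2 FPKM in WT, 6.92 to 12.6 in KO) and melanocytes (0.893 to 2.44 in WT, 0.708 to 1.07 in KO). They were lower in KO for leukocytes (12.5 to 22.4 FPKM in WT, 5.32 to 11.8 in KO) and endothelial cells (18.1 to 27.2 in WT, 5.82 to 17.5 in KO). These last sums were carried by *CD68* and *VWF*. Mitochondrial genes made up 21.5% to 27.6% of a WT library and 15.8%, 23.7% and 11.9% of KO libraries 1 to 3.

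The groups were compared with limma for genes averaging 0.5 FPKM or more over the libraries, on log2(FPKM + 0.5), so that fold changes of low genes are understated. Calls required a Benjamini-Hochberg adjusted p no higher than 0.05 and a log2 fold change of 0.5 or more in either direction. By this rule, 0 of 12241 tested genes were called (0%), and therefore 0 transporter genes. The disrupted gene *FGFR2* was not called either (log2 fold change -2.73, limma adjusted p = 0.261), so a lack of calls does not show equal levels. The authors did report differentially expressed genes for these lines with DESeq2, a count model that was not run here. With library weights, where WT replicate 1 had a weight of 10.3, 1396 of 12241 genes were called, among them 2 of the 8 tested members, *SLC3A2* and *SLC1A5*. When p was left unadjusted and the fold-change minimum kept, 1536 genes passed (12.5%), of which 1251 had higher (10.2%) and 285 had lower (2.33%) levels in KO. With median-of-ratios scaling between libraries, 785 were higher and 521 lower, and the median of all genes shifted by -0.11 on the log2 scale, from 0.09 to -0.02. Of the 10 transporter genes, 8 reached the minimum level. Of these 8, 2 (*SLC3A2* and *SLC1A5*) were higher at the unadjusted threshold and 0 were lower. This count was 0 with median-of-ratios, quantile or chromosome-median scaling or without the trend, and 3 when each library was scaled to the same sum. In those settings, in the same order, the count over all 12241 tested genes was 1306, 1305, 1251, 1511 and 1688. In none of the 8 did the WT and KO values fall into separate ranges, as they did in 24.1% of all tested genes (18.3% with every KO library above, 5.77% with every KO library below). The mean was higher in KO for 5 of the 8 genes (*SLC7A1*, 1 of the 5, turned under 3 scalings), beside 60.6% of all tested genes, and the median log2 fold change was 0.36 for the 8 genes and 0.09 for all tested genes.

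*SLC7A5* (ENSG00000103257, chromosome 16 from 87830023 to 87869507), the light chain that carries out the transport in LAT1, was the most abundant of the 10 transcripts and ranked 139th of 21475 genes by mean FPKM. WT libraries 1 to 3 gave 402, 308 and 591 FPKM, against 754, 471 and 770 FPKM from KO libraries 1 to 3. WT replicate 3 lay above KO replicate 2, so the groups overlapped, while KO replicates 1 and 3 lay above all WT libraries. WT lines averaged 434 ± 144 FPKM, and KO lines 665 ± 168 FPKM (SD, n = 3 each). The log2 fold change was 0.63 (95% interval -0.05 to 1.32, adjusted p = 0.317 from limma), and the two-sided exact permutation test gave p = 0.2. With 3 libraries against 3, the smallest p of this exact test is 0.1.

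*SLC3A2* (ENSG00000168003, chromosome 11 from 62856004 to 62888880), the heavy chain that LAT1 shares with several other light chains, ranked the 6 libraries in the same order as *SLC7A5*. WT libraries 1 to 3 gave 148, 144 and 224 FPKM, against 332, 179 and 357 FPKM from KO libraries 1 to 3. Again KO replicate 2 was below WT replicate 3, and the 2 other KO lines were above every WT line. WT lines averaged 172 ± 45.1 FPKM, and KO lines 289 ± 96.4 FPKM (SD, n = 3 each), with a log2 fold change of 0.72 (95% interval 0.02 to 1.42, limma adjusted p = 0.290). The exact permutation test gave p = 0.2.

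*SLC1A5* (ENSG00000105281, chromosome 19 from 46774883 to 46788594), encoding the glutamine exchanger ASCT2, measured 68.8, 50.02 and 105 FPKM across WT replicates 1 to 3. KO replicates 1 to 3 had 149, 81.4 and 144 FPKM. The log2 fold change was 0.76 (95% interval 0.00029 to 1.51, limma adjusted p = 0.296; exact permutation p = 0.2). *SLC1A4* (ENSG00000115902, chromosome 2 from 64988477 to 65023865), encoding the related exchanger ASCT1, was expressed at a lower level, with 11.4, 6.41 and 20.7 FPKM across WT replicates 1 to 3. KO replicates 1 to 3 had 24.3, 17.0 and 23.3 FPKM. Its log2 fold change was 0.86 (95% interval -0.03 to 1.74, limma adjusted p = 0.305; exact permutation p = 0.2). In both genes WT replicate 2 was the lowest library, and WT replicate 3 lay above KO replicate 2.

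**Figure D1:**
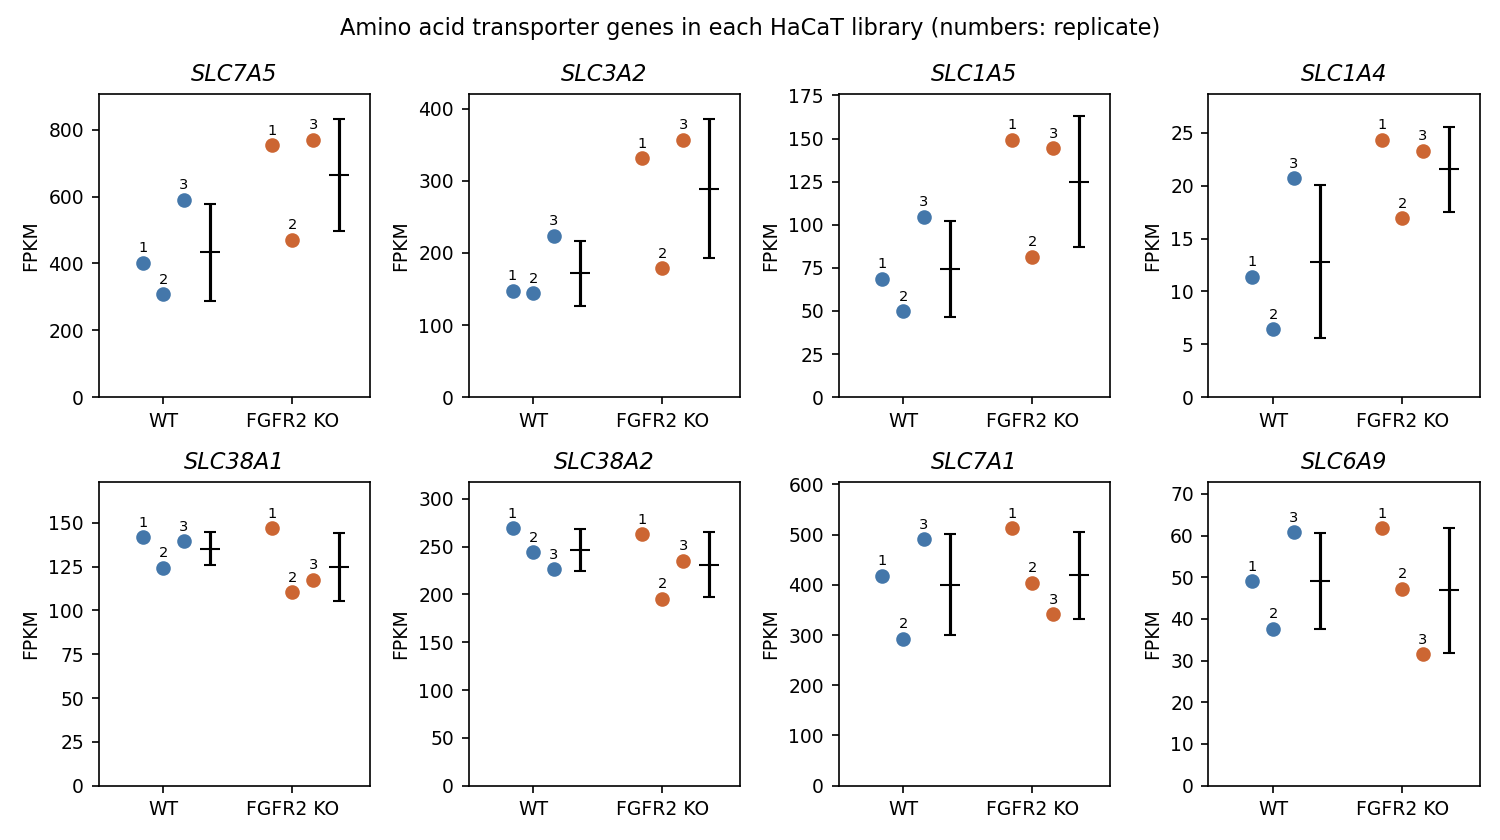
Level in FPKM (vertical axes from 0) of the 8 transporter genes that reached the minimum level, in 3 WT (blue) and 3 *FGFR2* KO (orange) libraries. Numbers are replicates, and the black marks show mean ± SD (n = 3). In the upper row KO replicates 1 and 3 lie above all WT libraries and KO replicate 2 lies below WT replicate 3, while in the lower row both groups cover much of the same range.

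For these 4 genes the size of the difference depended on single libraries. Without WT replicate 3, the log2 fold change was 0.88 for *SLC7A5*, 0.92 for *SLC3A2*, 1.03 for *SLC1A5* and 1.27 for *SLC1A4*. All 4 were then past the unadjusted threshold, beside 1952 of all 12241 tested genes. Without WT replicate 2 the log2 fold change was 0.41, 0.60, 0.50 and 0.46, and 0 of the 4 were past this threshold, beside 1141 of all tested genes. Without KO replicate 2 it was 0.86, 1.03, 1.04 and 1.02. In 5 other scalings between libraries, the log2 fold change ranged from 0.49 to 0.67 for *SLC7A5* and from 0.73 to 0.90 for *SLC1A4*. KO replicates 1 and 3, where these genes were highest, were also the deepest libraries (88000000 and 86700000 fragments) and those with the lowest mitochondrial share. With the libraries scaled to the FPKM of nuclear genes, the log2 fold changes were 0.55, 0.64, 0.68 and 0.78. The part of depth and of the marker sums above in the difference was not tested.

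*SLC38A1* and *SLC38A2*, neighbours on chromosome 12 (46183063 to 46270017 and 46358188 to 46372773), encode the sodium-coupled importers SNAT1 and SNAT2. *SLC38A1* (ENSG00000111371) measured 142, 124 and 140 FPKM in WT libraries 1 to 3, against 147, 110 and 117 FPKM in KO libraries 1 to 3. Its log2 fold change was -0.12 (95% interval -0.48 to 0.23, limma adjusted p = 0.695). *SLC38A2* (ENSG00000134294), which is induced when cells lack amino acids, reached 269, 244 and 226 FPKM across WT replicates 1 to 3, compared with 263, 195 and 235 FPKM across KO replicates 1 to 3. Its log2 fold change was -0.10 (95% interval -0.47 to 0.27, limma adjusted p = 0.766). The groups overlapped for both genes, and these intervals contain neither a doubling nor a halving of expression.

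*SLC7A1* (ENSG00000139514, chromosome 13 from 29509414 to 29595688), encoding the arginine and lysine transporter CAT1, was the second most abundant member. It measured 418, 293 and 491 FPKM in WT libraries 1 to 3, against 513, 404 and 341 FPKM in KO libraries 1 to 3, with a log2 fold change of 0.08 (95% interval -0.48 to 0.64, limma adjusted p = 0.885) that turned to between -0.035 and -0.0015 under median-of-ratios, quantile and nuclear scaling. *SLC6A9* (ENSG00000196517, chromosome 1 from 43991500 to 44031467), encoding the glycine transporter GLYT1, reached 49.0, 37.7 and 60.8 FPKM across WT replicates 1 to 3, compared with 61.8, 47.2 and 31.6 FPKM across KO replicates 1 to 3. Its log2 fold change was -0.09 (95% interval -0.73 to 0.54, limma adjusted p = 0.879). KO replicate 3, the highest or second highest library for the 4 genes above, was the lowest for *SLC6A9* and the second lowest for *SLC7A1*.

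Both remaining members were under the minimum level and were not tested. *SLC7A2* (ENSG00000003989, chromosome 8 from 17497088 to 17570573), encoding the arginine transporter CAT2, was listed at 0.0021, 0 and 0.0024 FPKM in WT replicates 1, 2 and 3 and at 0 in the 3 KO libraries. On its MANE Select transcript, 3 fragments would correspond to 0.0045 to 0.0058 FPKM, so that every library was below this floor and the gene was not detectable at this depth. *SLC43A1* (ENSG00000149150, chromosome 11 from 57484534 to 57515780), encoding LAT3, measured 0, 0.080 and 0.025 FPKM in WT libraries 1 to 3, against 0.082, 0.051 and 0 FPKM in KO libraries 1 to 3. No fold change is given for these genes.

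FPKM are normalized for length, so genes can be set side by side, but only roughly, because how the values were calculated is not given. By the WT mean, the order was *SLC7A5* (434 FPKM), *SLC7A1* (400), *SLC38A2* (246), *SLC3A2* (172), *SLC38A1* (135), *SLC1A5* (74.5), *SLC6A9* (49.2), *SLC1A4* (12.8), *SLC43A1* (0.035) and *SLC7A2* (0.0015). *SLC7A5* and *SLC7A1* did not differ beyond their spread, with *SLC7A5* higher in 2 of 3 WT libraries, and the ranges of *SLC1A5* and *SLC6A9* overlapped, as did those of *SLC43A1* and *SLC7A2*. By the KO mean, *SLC7A5* (665 FPKM) lay above *SLC7A1* (419), *SLC3A2* (289), *SLC38A2* (231), *SLC1A5* (125.0), *SLC38A1* (124.9), *SLC6A9* (46.9) and *SLC1A4* (21.5). In KO the mean of *SLC3A2* was thus above that of *SLC38A2*, and *SLC1A5* was at the level of *SLC38A1*, but each was the higher gene in 2 of 3 KO libraries only, and the ranges of these neighbours overlapped, as did those of *SLC7A5* with *SLC7A1* and of *SLC7A1* with *SLC3A2*.

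A ratio of 2 genes within a library does not depend on the scaling of the library. The ratio of the light chain *SLC7A5* to its heavy chain *SLC3A2* came to 2.72, 2.14 and 2.64 across WT replicates 1 to 3, compared with 2.27, 2.64 and 2.16 across KO replicates 1 to 3. Over the 6 libraries *SLC3A2* varied from 144 to 357 FPKM, while this ratio stayed between 2.14 and 2.72, with means of 2.502 ± 0.316 in WT and 2.36 ± 0.25 in KO (SD, n = 3 each; exact permutation p = 0.7). The ratio of *SLC1A4* to *SLC1A5* was 0.164 ± 0.035 in WT and 0.178 ± 0.027 in KO (SD, n = 3 each; exact permutation p = 0.6). The ratio of *SLC38A2* to *SLC38A1* was 1.83 ± 0.18 in WT and 1.85 ± 0.13 in KO (SD, n = 3 each; exact permutation p = 0.9). Within these 3 pairs the groups overlapped.

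The ratio of *SLC7A1*, which needs no heavy chain, to *SLC3A2* came to 2.83, 2.03 and 2.19 across WT replicates 1 to 3, compared with 1.55, 2.26 and 0.956 across KO replicates 1 to 3. It was lower in KO replicates 1 and 3 than in any WT library but not in KO replicate 2, and the difference of the log2 ratios was -0.64 (exact permutation p = 0.3). Adjusted over the 4 ratios, each p was 0.9. As descriptions chosen after the values were seen, 2 further ratios set an exchanger or its heavy chain against a sodium-coupled importer. *SLC3A2* to *SLC38A2* came to 0.548, 0.588 and 0.990 across WT replicates 1 to 3, compared with 1.26, 0.915 and 1.52 across KO replicates 1 to 3. *SLC1A5* to *SLC38A1* came to 0.485, 0.402 and 0.750 across WT replicates 1 to 3, compared with 1.02, 0.737 and 1.23 across KO replicates 1 to 3. In both, KO replicates 1 and 3 lay above all WT libraries, and KO replicate 2 lay below WT replicate 3.

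**Figure D2:**
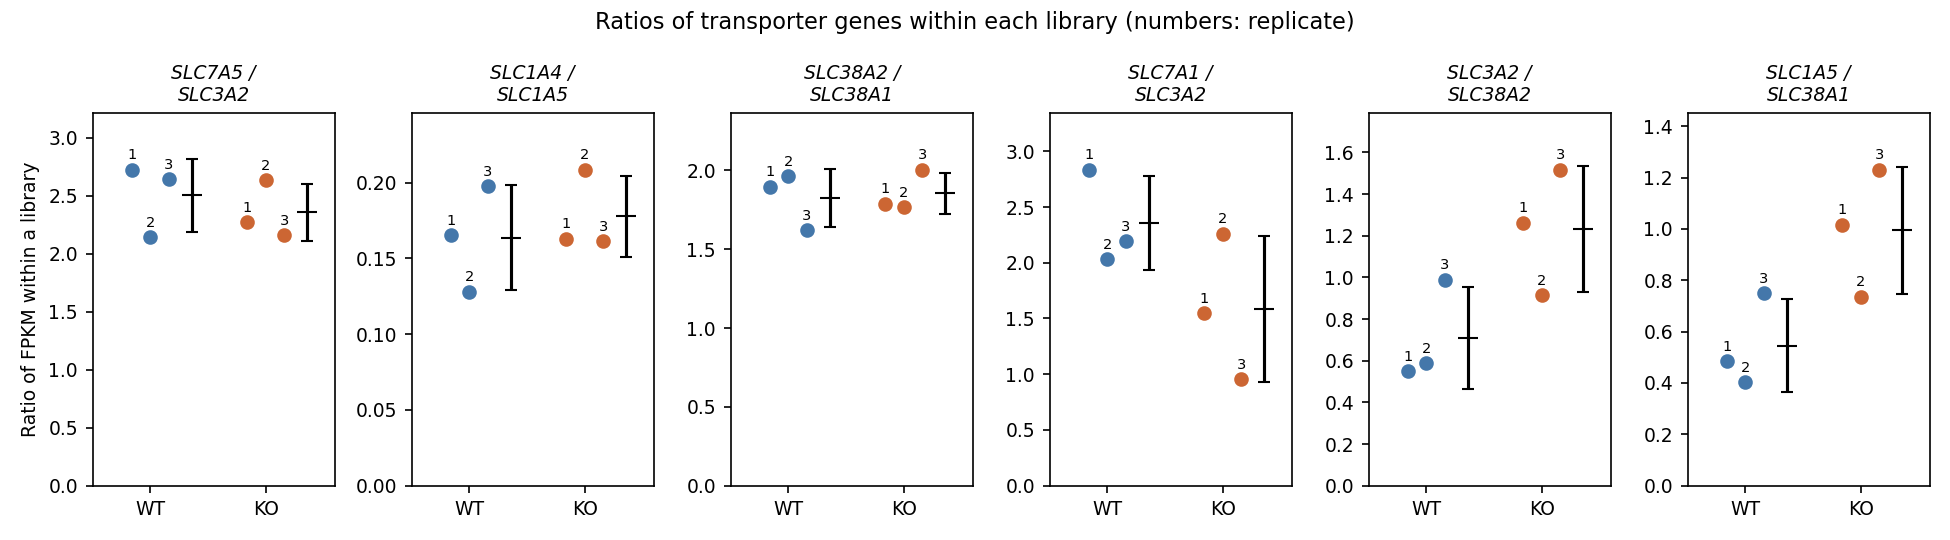
Ratio of the FPKM of 2 genes within each library (vertical axes from 0) in 3 WT (blue) and 3 *FGFR2* KO (orange, KO) libraries, with replicate numbers and mean ± SD (black, n = 3). The groups overlap in all 6 ratios. The ratio of *SLC7A5* to *SLC3A2* stays between 2.14 and 2.72, whereas *SLC3A2* to *SLC38A2* runs from 0.548 to 1.52.

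Relative to the WT mean on the log2 scale, *SLC7A5* was at -0.06, -0.44 and 0.50 in WT replicates 1, 2 and 3 and at 0.85, 0.17 and 0.88 in KO replicates 1, 2 and 3, and *SLC1A5* at -0.05, -0.50 and 0.55 and at 1.06, 0.19 and 1.02. The median of all tested genes lay between -0.04 and 0.15. Across the 6 libraries, the Pearson correlations among *SLC7A5*, *SLC3A2*, *SLC1A5* and *SLC1A4* were between 0.852 and 0.998 (6 pairs), and between 0.731 and 0.997 after the mean of each group was subtracted. These 4 genes were grouped because their profiles in these libraries were alike, so these ranges are no test of the grouping. The second range pools the lines of both genotypes. Between these 4 genes and the other 4 the correlations ran from -0.18 to 0.67 (16 pairs), and from 0.051 to 0.768 after the group means were subtracted. The ranges were thus apart over all libraries but overlapped after this subtraction, where *SLC1A4* with *SLC7A1* (0.768) was above *SLC3A2* with *SLC1A4* (0.731). Among the other 4, *SLC7A1* and *SLC6A9* had the closest profiles (r = 0.90), followed by *SLC38A1* and *SLC38A2* (r = 0.77). These are descriptions of 6 points, which share library, depth and genotype.

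**Figure D3:**
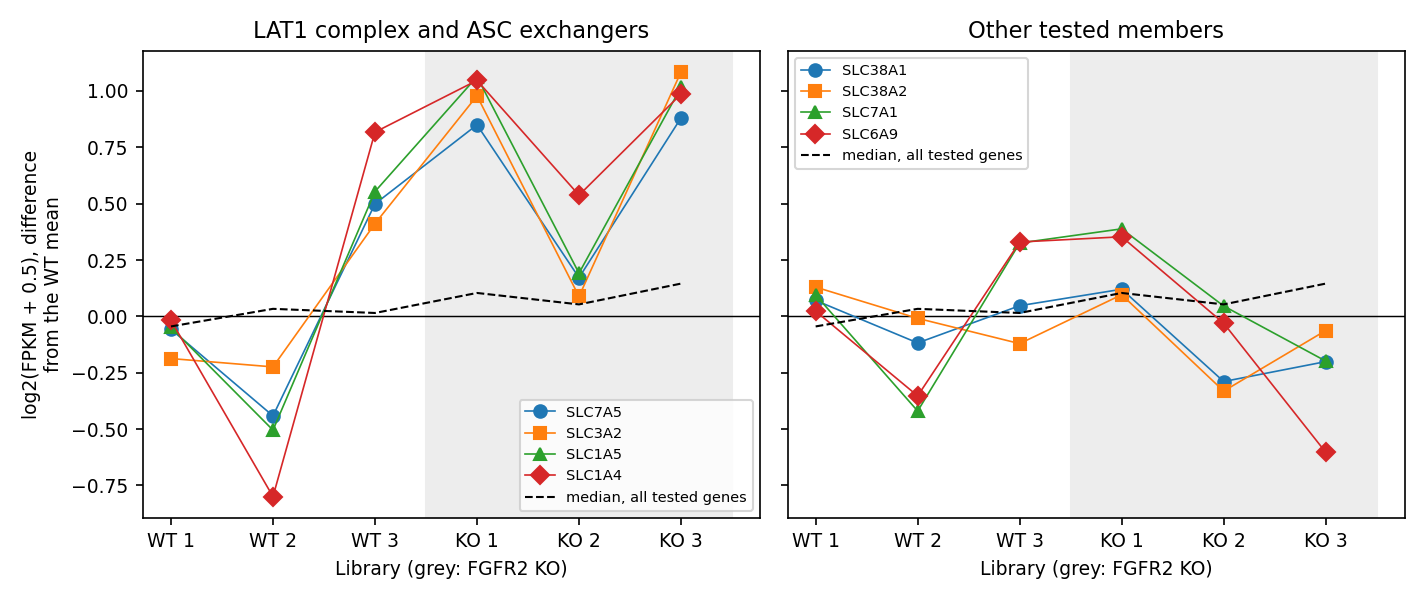
Difference of log2(FPKM + 0.5) from the WT mean (vertical axis) in each library (horizontal axis, KO libraries on grey). Coloured lines join the values of 1 gene, and the dashed line is the median of all tested genes. On the left *SLC7A5*, *SLC3A2*, *SLC1A5* and *SLC1A4* are high in WT replicate 3 and KO replicates 1 and 3 and low in WT replicate 2, while on the right *SLC6A9* lies at -0.60 in KO replicate 3.

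**Figure D4:**
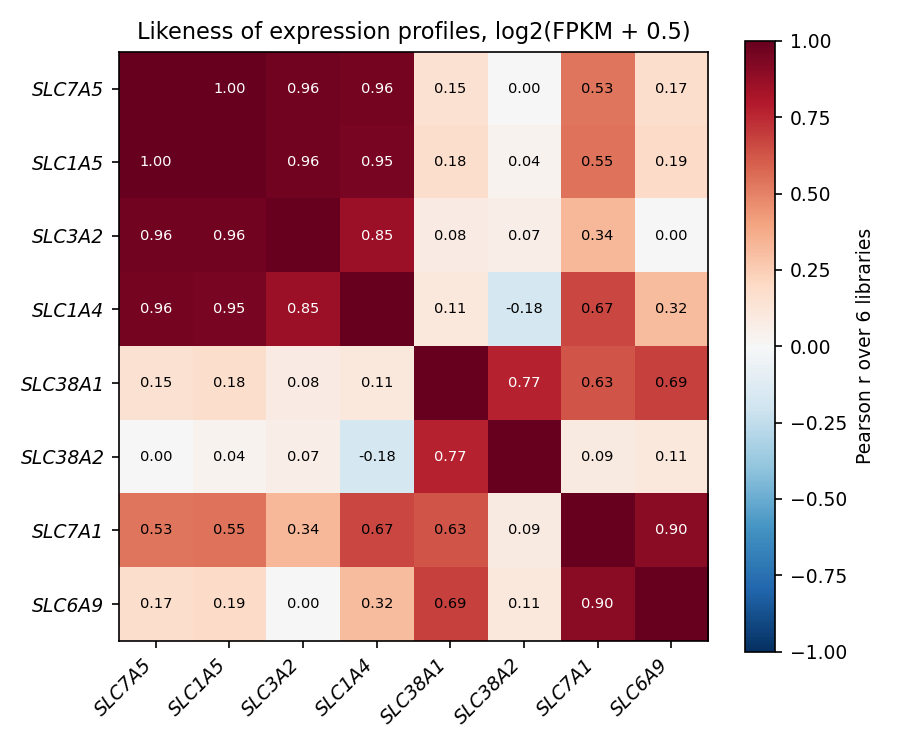
Pearson correlation over 6 libraries of log2(FPKM + 0.5) for each pair of the 8 tested members, with red for positive and blue for negative values. The 4 genes in the upper left are correlated at 0.852 to 0.998, and *SLC7A1* with *SLC6A9* at 0.90.

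Of all 12240 other tested genes, *SLC1A5* had the profile most like that of *SLC7A5*, with r = 0.998 over the 6 libraries. It was followed by *CSRP1*, a LIM domain protein gene (r = 0.996), and the zinc finger gene *ZNF749* (r = 0.994). *SLC3A2* ranked 167th with r = 0.961 and *SLC1A4* 186th with r = 0.959. Similar profiles were common, since 2096 genes (17.1%) had r of at least 0.8 with *SLC7A5*. *CSRP1* differed less between the groups, with a log2 fold change of 0.25 (standard error 0.16, limma adjusted p = 0.439).

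Another 38 amino acid transporter genes were listed, of which 14 reached the minimum level. None was called, and at the unadjusted threshold 1 was higher and 0 were lower in KO, beside 10.2% and 2.33% of all tested genes. KO means exceeded WT means for 9 of the 14, beside 60.6% of all tested genes. The median log2 fold change was 0.21, beside 0.09 for all tested genes. In 3 of the 14 genes, *SLC38A5*, *SLC38A7* and *SLC38A10*, every KO library lay above every WT library, beside 18.3% of all tested genes. *SLC38A5* (ENSG00000017483, chromosome X from 48458537 to 48470260) encodes SNAT5, which carries glutamine, histidine, serine and glycine. It reached 29.7, 17.1 and 26.8 FPKM across WT replicates 1 to 3, compared with 62.0, 44.4 and 103 FPKM across KO replicates 1 to 3. Unlike in the 8 tested genes above, the lowest KO value was above the highest WT value. The log2 fold change was 1.44 (95% interval 0.67 to 2.21, limma adjusted p = 0.261), and omitting any single library gave 1.12 to 1.72.

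*SLC38A7* and *SLC38A10*, chosen after their values were seen, had smaller differences, with log2 fold changes of 0.36 (standard error 0.13) and 0.17 (standard error 0.12), the latter turning to -0.013 once the median of its chromosome was removed. *SLC7A8*, also chosen after its values were seen, encodes LAT2, another light chain of 4F2hc. It measured 129, 29.7 and 170 FPKM in WT libraries 1 to 3, against 109, 60.5 and 47.0 FPKM in KO libraries 1 to 3. Its spread within WT was larger than the difference of the means, and its log2 fold change was -0.36 (standard error 0.63, limma adjusted p = 0.788). *SLC7A11*, the light chain of the cystine transporter, was expressed at a low level, with 2.88 ± 1.37 FPKM in WT and 3.97 ± 1.63 FPKM in KO (SD, n = 3 each). Of the listed genes, 24 did not reach the minimum level, and the highest single value among them was 1.32 FPKM, for *SLC6A15* in KO replicate 1.

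**Figure D5:**
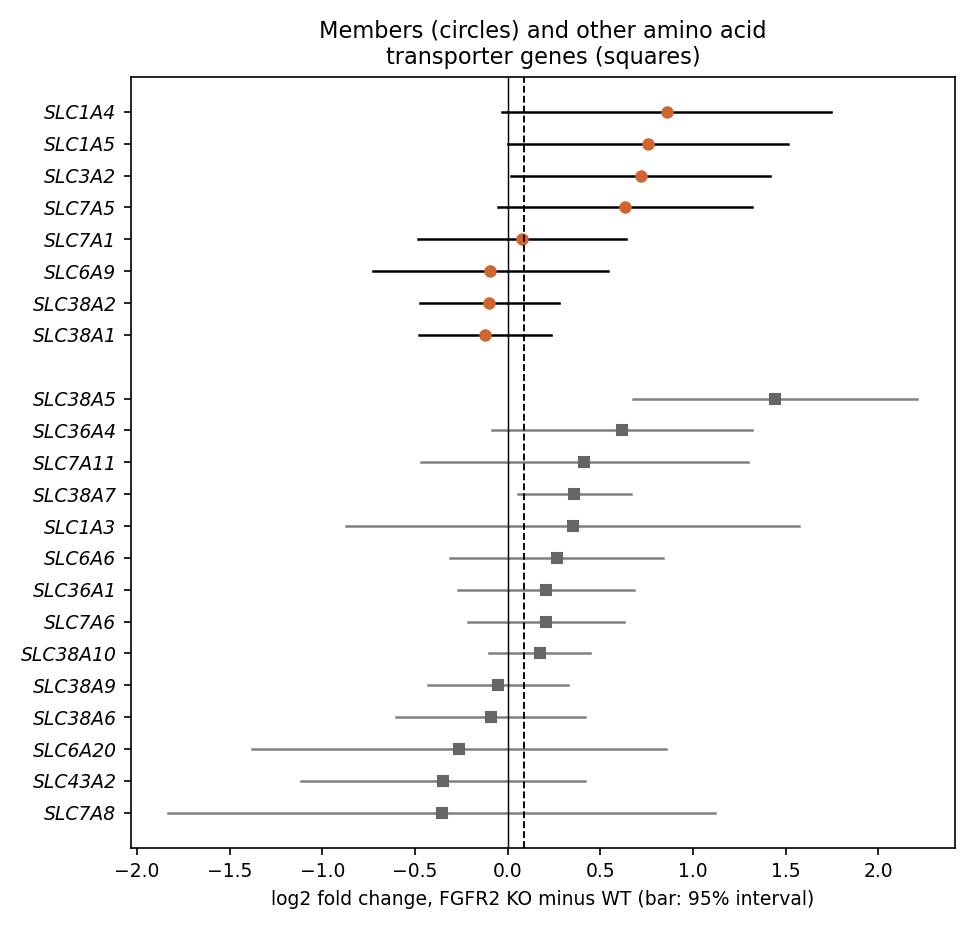
log2 fold change, *FGFR2* KO minus WT, with its 95% interval from limma, for the 8 tested members (orange circles) and 14 other tested amino acid transporter genes (grey squares). The solid line is 0 and the dashed line the median of all tested genes, 0.09. The intervals of *SLC7A5* and *SLC1A4* include 0, the lower ends of those of *SLC3A2* and *SLC1A5* lie just above it, and that of *SLC38A5* starts at 0.67.

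Genes of the amino acid response other than transporters were set beside the members. Of 23 listed genes, 22 were tested, 0 were called, and the median log2 fold change was 0.38. At the unadjusted threshold 4 of the 22 were higher and 2 lower, beside 10.2% and 2.33% of all tested genes. Of these 22, 13 had r of at least 0.8 with *SLC7A5*, beside 17.1% of all other tested genes. Others went the opposite way. Named for this after the values were seen, *DDIT4* (-0.88), *DDIT3* (-0.58), *SESN2* (-0.38), *NUPR1* (-0.37) and *ATF3* (-0.33) had a negative r with *SLC7A5*. The genes at the unadjusted threshold that were higher, *STC2*, *PYCR1*, *MTHFD2* and *PSPH*, overlapped between the groups and were chosen after their values were seen. Among them *PYCR1*, an enzyme of proline synthesis, had 8.39, 6.35 and 14.1 FPKM across WT replicates 1 to 3, compared with 30.8, 13.8 and 32.8 FPKM across KO replicates 1 to 3, a log2 fold change of 1.36 (standard error 0.39, limma adjusted p = 0.261). As for the exchangers, KO replicate 2 was below WT replicate 3. Of the 4 higher genes, *PYCR1* alone stayed past the unadjusted threshold without WT replicate 1 or 2 or without KO replicate 1 or 3. *PSPH* was also not past it with median-of-ratios or quantile scaling. The lower ones did not overlap. *DDIT4*, an inhibitor of mTORC1, reached 187, 353 and 151 FPKM across WT replicates 1 to 3, compared with 128, 125 and 82.5 FPKM across KO replicates 1 to 3, a log2 fold change of -0.97 (standard error 0.33, limma adjusted p = 0.261). Without WT replicate 2, its highest library, it was -0.61, and without KO replicate 3 *DDIT4* was not past the unadjusted threshold. For the stress response gene *NUPR1* the log2 fold change was -1.22 (standard error 0.41, limma adjusted p = 0.261), at 1.84 ± 0.55 FPKM in WT and 0.590 ± 0.602 FPKM in KO (SD, n = 3 each), and *NUPR1* was not past the unadjusted threshold without WT replicate 3, KO replicate 2 or KO replicate 3.

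Some genes of this response, chosen after their values were seen, were high in the same libraries as the exchangers. *PSAT1*, an enzyme of serine synthesis, measured 34.7, 18.0 and 99.2 FPKM in WT libraries 1 to 3, against 139, 41.8 and 89.7 FPKM in KO libraries 1 to 3. *ASNS*, asparagine synthetase, reached 6.86, 2.92 and 31.1 FPKM across WT replicates 1 to 3, compared with 35.0, 6.34 and 12.2 FPKM across KO replicates 1 to 3. For both, WT replicate 3 was above KO replicates 2 and 3, so they did not divide the libraries by genotype. The mRNA of *ATF4* itself varied less, between 152 and 229 FPKM, with a log2 fold change of 0.17 (standard error 0.19, limma adjusted p = 0.670), or -0.018 with chromosome medians removed.

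Amino acids taken up by these transporters are sensed by mTORC1 through the Rag GTPases, the GATOR complexes and the sensors of leucine and arginine. Of 33 listed genes of this machinery, 32 were tested and 0 were called. At the unadjusted threshold 1 was higher and 3 were lower, beside 10.2% and 2.33% of all tested genes, and the median log2 fold change was -0.02. All KO libraries were above the WT range for 5 of the 32 genes and below it for 3, beside 18.3% and 5.77% of all tested genes. *CASTOR1*, the arginine sensor, measured 9.13, 11.4 and 10.0 FPKM in WT libraries 1 to 3, against 6.33, 6.86 and 5.62 FPKM in KO libraries 1 to 3. *RRAGB*, a Rag GTPase gene, reached 12.1, 13.5 and 10.4 FPKM across WT replicates 1 to 3, compared with 6.91, 8.65 and 5.58 FPKM across KO replicates 1 to 3. For both genes the KO libraries were all below the WT range, with log2 fold changes of -0.66 (standard error 0.16) and -0.74 (standard error 0.20) and a limma adjusted p of 0.261 each. *RPTOR*, which encodes the Raptor subunit of mTORC1, lay above the WT range in every KO library, with 13.7 ± 0.38 FPKM in WT and 20.5 ± 2.82 FPKM in KO (SD, n = 3 each), a log2 fold change of 0.55 (standard error 0.15, limma adjusted p = 0.261). For *RPTOR* it was under the minimum of 0.5 with nuclear (0.48), median-of-ratios (0.44), quantile (0.44) and chromosome-median (0.37) scaling. The same held with library weights (0.45) and without KO replicate 3 (0.45). *RPTOR* was thus not past the threshold there, and the whole list was not recounted under these settings.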

How the data were processed

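Poly(A)-selected, strand-specific libraries (TruSeq Stranded mRNA) of 3 WT and 3 *FGFR2* KO HaCaT lines were sequenced with paired-end reads. The authors trimmed reads with fastp 0.20.0 and pseudoaligned them with kallisto 0.46.1 to GRCh38.p13 with GENCODE gene models. The values deposited by the authors are FPKM per gene, and how they were calculated from the kallisto output is not given in the sources used here. Of 21493 genes, 18 Y copies of pseudoautosomal genes with values identical to the X copies were left out, and 21400 of the remaining 21475 were given a symbol from GENCODE release 44. Of 3884 low values of genes with 1 transcript, 70.7% were whole fragments within 0.02 at the estimated depth, too few for a recovery of read numbers, and count models were therefore not run.

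Groups were compared on the log2(FPKM + 0.5) scale, without further scaling, by limma 3.58.1 (R 4.3.3), keeping genes that averaged 0.5 FPKM or more, with a mean-variance trend and Benjamini-Hochberg adjustment over all tested genes. The fit was also run on simulated data, where genes varied independently and changes were larger than those of the members. That run does not measure its power for these genes. Ratios within libraries were compared with two-sided exact permutation tests (scipy 1.17.1). Depth and 3-fragment floors cover counting error only. The members and lists were chosen with earlier results of these data known. The genes named are the members, *FGFR2* and the 3 genes most like *SLC7A5*. Listed genes past the unadjusted threshold with groups that do not overlap are also named (up to 5 per list, by size of change). Others were named outside this rule, most of them marked as chosen after their values were seen. *SLC7A11*, *SLC6A15* and the cell type markers carry no such mark. Promoter letters come from the GRCh38 reference. Alternatives were other pseudocounts, filters and scalings, a fit without trend, library weights, a replicate block and leaving out each library.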

Additional observations from a re-analysis of the deposited data

How the results depend on the processing

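Over all genes, 0 were called under 17 of 18 alternatives. With library weights, where WT replicate 1 had a weight of 10.3 and the other libraries 0.358 to 1.49, 1396 of 12241 were called. With these weights *SLC3A2* (log2 fold change 0.92, adjusted p = 0.038 from limma), *SLC1A5* (0.86, adjusted p = 0.045) and *SLC38A5* (1.08, adjusted p = 0.031) were called. The count of members past the unadjusted threshold, 2 with the settings of the report, was 0 with no filter, median-of-ratios scaling, quantile normalization, chromosome medians removed or no trend, 1 with a pseudocount of 0.1 or 1 or nuclear scaling, 2 with a minimum mean of 2 FPKM, 3 with TPM scaling, and 4 with library weights or the replicate block. It ranged from 0 to 4 with 1 library left out, with 0 without WT replicate 1 or 2 or KO replicate 1 or 3, 3 without KO replicate 2 and 4 without WT replicate 3. The number over all 12241 tested genes, 1536 with the settings of the report, moved as well. It was 2162 with library weights, 1762 with the replicate block, 1688 with TPM scaling and 1306 with median-of-ratios scaling. With 1 library left out it was 961, 1141 and 1952 without WT replicates 1 to 3. Without KO replicates 1 to 3 it was 1562, 2262 and 633. The cause of these moves was not tested. The median log2 fold change of the members moved between 0.15 (without WT replicate 2) and 0.56 (without WT replicate 3).

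The log2 fold changes of *SLC7A5*, *SLC3A2*, *SLC1A5*, *SLC1A4*, *SLC38A1* and *SLC38A5* kept their direction under all 18 alternatives. That of *SLC7A1* was -0.0015 with nuclear scaling, -0.035 with median-of-ratios scaling and -0.028 with quantile normalization, that of *SLC6A9* 0.083 with library weights, and those of *ATF4* and *SLC38A10* -0.018 and -0.013 with chromosome medians removed. With 1 library left out, it ran from -0.13 to 0.24 for *SLC7A1*, -0.32 to 0.16 for *SLC6A9*, -0.20 to 0.016 for *SLC38A2*, -0.070 to 1.53 for *ASNS* and -1.12 to 0.13 for *SLC7A8*. The log2 ratio of *SLC1A4* to *SLC1A5* ran from -0.036 to 0.28, that of *SLC38A2* to *SLC38A1* from -0.060 to 0.079, that of *SLC7A5* to *SLC3A2* from -0.19 to -0.019 and that of *SLC7A1* to *SLC3A2* from -0.94 to -0.32.

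Same-numbered WT and KO libraries deviated from their group means with correlations of -0.21, 0.22 and 0.05. With so few libraries, these values cannot tell whether same-numbered libraries share a culture or day, and the labels do not say. With the replicate block 4 members and 1762 of all 12241 tested genes were past the unadjusted threshold, and 0 genes were called.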
